A study of Mus musculus with 4 samples.

Results

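The genes described here are Trp53, which encodes the transcription factor p53, and 9 genes that regulate p53 or are transcribed under its control: Mdm2, Mdm4, Cdkn1a, Ccng1, Zmat3, Phlda3, Sesn1, Bbc3 and Pmaip1. They were taken by name, 10 of 21883 protein-coding genes in the RefSeq annotation of GRCm38 (mm10), and Sub1 peaks were counted for each gene where they overlapped its body extended by 5 kb on both sides. The peaks came from CUT&Tag, in which a transposase tethered by an antibody cuts and tags DNA next to the antibody's target, here Sub1, a DNA-binding transcriptional cofactor. The leukemia stem cells (LSCs) were bone marrow cells of MLL-AF9-driven Nup214fl/+ mice, sorted as c-Kit+, CD16/32+ and CD34+ and as negative for Lin and Sca-1, and the hematopoietic stem cells (HSCs) were CD48-CD150+LSK bone marrow cells of Nup214fl/+ mice, with 2 libraries per group. Every group thus carried 1 floxed allele of Nup214, a nuclear pore gene, and the LSC group carried the MLL-AF9 oncogene in addition. The labels give no age, do not say how MLL-AF9 was introduced, do not say whether the 2 libraries per group are from different mice, and name hematopoietic stem cell as the cell type of all 4 samples. P-values therefore compare group labels over these libraries only, and the spread within a group may be technical.

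In unstressed cells p53 is held low by Mdm2, an E3 ubiquitin ligase that marks it for degradation, and by Mdm4, a relative of Mdm2 that binds p53 and blocks its activity. Upon DNA damage or oncogene activity p53 accumulates, binds response elements built from paired copies of a short half-site, and activates genes for cell cycle arrest, repair, antioxidant defence and apoptosis; Mdm2 is itself a target and closes a negative feedback loop. In blood stem cells this pathway is known for holding cells in quiescence and for removing damaged ones.

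The lists held 41097 and 34185 peaks in LSC 1 and LSC 2, against 115881 and 235680 peaks in HSC 1 and HSC 2. Read totals were not given, and the caller's background, the depth measure that could be recovered, was 4.54 and 4.5 reads per position in the LSC libraries, against 3.07 and 7.47 in the HSC libraries. Start-site peaks at the 7 genes of the sorting markers followed the gates in part. Ly6a, which encodes Sca-1, had one in HSC 1 and HSC 2 and none in LSC 1 and LSC 2, and Slamf1, which encodes CD150, had one in HSC 2 alone. The Ly6a peaks ranked only 32998 and 33401 by -log10 p in HSC 1 and HSC 2. No strand is given for Ly6a, so either annotated end counted as a start, and each LSC library had 1 peak elsewhere in its extended gene body. Kit, the CD16/32 genes Fcgr3 and Fcgr2b, and Cd48, whose product is gated out of the HSCs, had a start-site peak in all 4 libraries, and Cd34 had one in LSC 1, LSC 2 and HSC 2. Of genes that mark other cell types, start-site peaks were found in LSC 1 and LSC 2, against HSC 1 and HSC 2, at 7 and 6 against 8 and 8 of 8 mature neutrophil genes, at 3 and 1 against 4 and 4 of 8 erythroid genes, at 2 and 2 against 4 and 6 of 7 B cell genes, and at 1 and 1 against 4 and 5 of 8 T cell genes. When every list was cut to its top 34185 peaks by -log10 p, so that all had equal size, the counts in the same order were 6 and 6 against 8 and 8 neutrophil genes, 2 and 1 against 2 and 2 erythroid genes, 2 and 2 against 3 and 2 B cell genes, and 1 and 1 against 1 and 1 T cell genes. Over all protein-coding genes 53.6% and 51.9% had a start-site peak in the equal-sized LSC lists, against 48.1% and 47.9% in the equal-sized HSC lists. The part of other cell types in the results below was not tested, and in bulk chromatin a change in the share of cells with a peak and a change in signal per cell cannot be told apart.

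Promoter sequences are shown for the members whose start sites carry the results: the pair of annotated starts at Cdkn1a, Mdm4 and Sesn1, where peaks sat at unequal strength, Ccng1, the strongest start in LSCs, Phlda3, the weakest start, and Trp53. Each runs from 250 bases before to 50 bases after an annotated start, 5′ to 3′ on the gene's strand, from RefSeq (GRCm38.p6). Capitals mark matches on either strand to the TATA box (TATAAA), the CCAAT box (CCAAT), the GC box (GGGCGG), the E-box (CACGTG) or the p53 half-site, and overlapping matches run together.
Trp53 (chr11:69580109-69580408, plus strand): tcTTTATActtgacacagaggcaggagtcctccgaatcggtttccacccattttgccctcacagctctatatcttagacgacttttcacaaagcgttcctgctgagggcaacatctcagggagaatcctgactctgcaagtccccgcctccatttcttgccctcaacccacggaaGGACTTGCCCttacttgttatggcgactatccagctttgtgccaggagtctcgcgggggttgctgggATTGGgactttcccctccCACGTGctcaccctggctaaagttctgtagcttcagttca
Mdm4, upstream start (chr1:133030538-133030837, minus strand): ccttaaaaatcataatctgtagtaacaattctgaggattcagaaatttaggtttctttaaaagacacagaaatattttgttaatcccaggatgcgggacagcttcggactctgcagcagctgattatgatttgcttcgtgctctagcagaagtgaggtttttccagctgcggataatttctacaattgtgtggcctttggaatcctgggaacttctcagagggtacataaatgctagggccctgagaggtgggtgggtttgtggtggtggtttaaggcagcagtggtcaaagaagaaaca
Mdm4, downstream start (chr1:133025367-133025666, minus strand): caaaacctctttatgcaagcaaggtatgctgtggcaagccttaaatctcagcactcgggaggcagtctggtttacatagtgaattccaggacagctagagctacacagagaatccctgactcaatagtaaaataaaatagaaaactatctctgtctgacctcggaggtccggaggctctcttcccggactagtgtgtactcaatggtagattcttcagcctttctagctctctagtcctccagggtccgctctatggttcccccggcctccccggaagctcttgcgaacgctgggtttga
Cdkn1a, upstream start (chr17:29090729-29091028, plus strand): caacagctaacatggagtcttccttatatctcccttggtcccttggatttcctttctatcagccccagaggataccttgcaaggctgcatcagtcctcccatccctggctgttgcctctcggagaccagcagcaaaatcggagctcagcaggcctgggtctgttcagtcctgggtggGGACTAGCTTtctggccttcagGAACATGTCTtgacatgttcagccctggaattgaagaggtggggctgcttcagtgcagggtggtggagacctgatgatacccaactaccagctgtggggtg
Cdkn1a, downstream start (chr17:29093519-29093818, plus strand): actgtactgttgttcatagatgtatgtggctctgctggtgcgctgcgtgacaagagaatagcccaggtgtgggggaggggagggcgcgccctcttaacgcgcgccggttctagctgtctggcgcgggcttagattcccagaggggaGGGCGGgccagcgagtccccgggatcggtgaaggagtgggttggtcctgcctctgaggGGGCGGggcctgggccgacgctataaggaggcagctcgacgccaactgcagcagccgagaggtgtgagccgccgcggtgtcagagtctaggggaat
Ccng1 (chr11:40755237-40755536, minus strand): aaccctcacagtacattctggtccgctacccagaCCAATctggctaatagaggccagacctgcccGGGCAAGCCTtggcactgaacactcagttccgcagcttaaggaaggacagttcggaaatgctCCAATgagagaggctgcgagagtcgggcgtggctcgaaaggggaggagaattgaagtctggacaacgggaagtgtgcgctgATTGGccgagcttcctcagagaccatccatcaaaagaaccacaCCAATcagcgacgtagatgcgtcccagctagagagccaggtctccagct
Sesn1, upstream start (chr10:41810324-41810623, plus strand): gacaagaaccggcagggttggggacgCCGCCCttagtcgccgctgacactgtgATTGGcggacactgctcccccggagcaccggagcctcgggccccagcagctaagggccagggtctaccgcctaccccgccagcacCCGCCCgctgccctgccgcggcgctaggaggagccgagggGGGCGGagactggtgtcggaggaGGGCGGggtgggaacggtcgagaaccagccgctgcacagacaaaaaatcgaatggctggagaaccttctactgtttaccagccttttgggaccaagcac
Sesn1, downstream start (chr10:41887189-41887488, plus strand): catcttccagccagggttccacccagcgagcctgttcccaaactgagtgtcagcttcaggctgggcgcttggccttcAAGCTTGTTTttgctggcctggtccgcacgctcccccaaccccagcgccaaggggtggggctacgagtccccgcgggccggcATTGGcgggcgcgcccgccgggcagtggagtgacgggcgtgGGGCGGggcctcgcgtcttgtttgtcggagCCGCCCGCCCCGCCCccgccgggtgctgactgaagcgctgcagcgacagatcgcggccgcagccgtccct
Phlda3 (chr1:135765835-135766134, plus strand): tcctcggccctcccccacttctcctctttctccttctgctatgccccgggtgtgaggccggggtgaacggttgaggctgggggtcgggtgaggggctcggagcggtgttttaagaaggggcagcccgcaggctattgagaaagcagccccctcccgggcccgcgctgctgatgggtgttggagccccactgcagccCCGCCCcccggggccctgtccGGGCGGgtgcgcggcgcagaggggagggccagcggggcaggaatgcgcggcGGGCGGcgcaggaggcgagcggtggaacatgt

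Among all 21262 promoters of the same length in the table, 12.6% held a TATA box, 38.2% a CCAAT box, 46.2% a GC box, 7.84% the E-box and 7.37% a p53 half-site. Of the 13 promoters of 8 members in the table, of which those of Bbc3 overlap one another in part, 1 held a TATA box, 6 a CCAAT box, 8 a GC box, 2 the E-box and 5 a p53 half-site. The half-site matches lay at Trp53, Mdm2, Ccng1, the upstream start of Cdkn1a, which had 2, and the downstream start of Sesn1. Their positions from the annotated start, counted as 0, were -75 to -66 at Trp53, -186 to -177 at Mdm2, -185 to -176 at Ccng1, -73 to -64 and -51 to -42 at Cdkn1a, and -173 to -164 at Sesn1. The TATAAA match lay at Trp53, at -248 to -243 and on the opposite strand. A match describes the letters and is not a measured p53 site or a measured promoter element. The absence of a match says only that the letters are not in that window. CpG dinucleotides numbered 24 in the median member promoter, with a range of 2 to 39, against 13 in the median of all promoters.

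Sub1 occupied the p53 genes in both cell types. Within the gene windows 10 and 9 members had a peak in LSC 1 and LSC 2, against 9 and 10 in HSC 1 and HSC 2, so the groups overlapped (difference in means 0, exact permutation test, two-sided, p = 1.00). Over all protein-coding genes the shares with a peak were 64.2% and 59.7% in the LSC libraries, against 71.9% and 87.2% in the HSC libraries. Of the 10 members, 9 had a window peak in all 4 libraries, as did 58% of all genes, and Phlda3 was the exception. No member was occupied in LSCs alone, that is in LSC 1 and LSC 2 but not in HSC 1 or HSC 2 (0.0366% of all genes), or in HSCs alone (8.21% of all genes). In the equal-sized lists 10 and 9 members had a window peak in the LSC libraries (62.2% and 59.7% of all genes), against 9 and 9 in the HSC libraries (56.1% and 58.9%). There 8 members had one in all 4 libraries (52.2% of all genes), Zmat3 and Phlda3 being the exceptions, and none was in LSCs alone (2.36%) or in HSCs alone (0.416%).

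At the start sites, taken as 1 kb on either side of an annotated start, 10 and 9 members had a peak in the LSC libraries, against 9 and 9 in the HSC libraries (p = 1.00, exact permutation test, two-sided). The shares over all genes were 54.3% and 51.9% in the LSC libraries, against 55.9% and 64.1% in the HSC libraries, and 48.6% of genes had one in all 4, as 9 of the 10 members did. For Zmat3 and Pmaip1 the table gives no strand, so either annotated end counted as a start. These counts need only an overlap. With the summit required to lie within 1 kb of a start, 8 and 7 members had a peak in the LSC libraries, against 7 and 7 in the HSC libraries. The share over all genes is not given for that setting. With 2 libraries against 2 there are 6 assignments, and no two-sided exact permutation test here could give a p below 0.33.

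**Figure D1:**
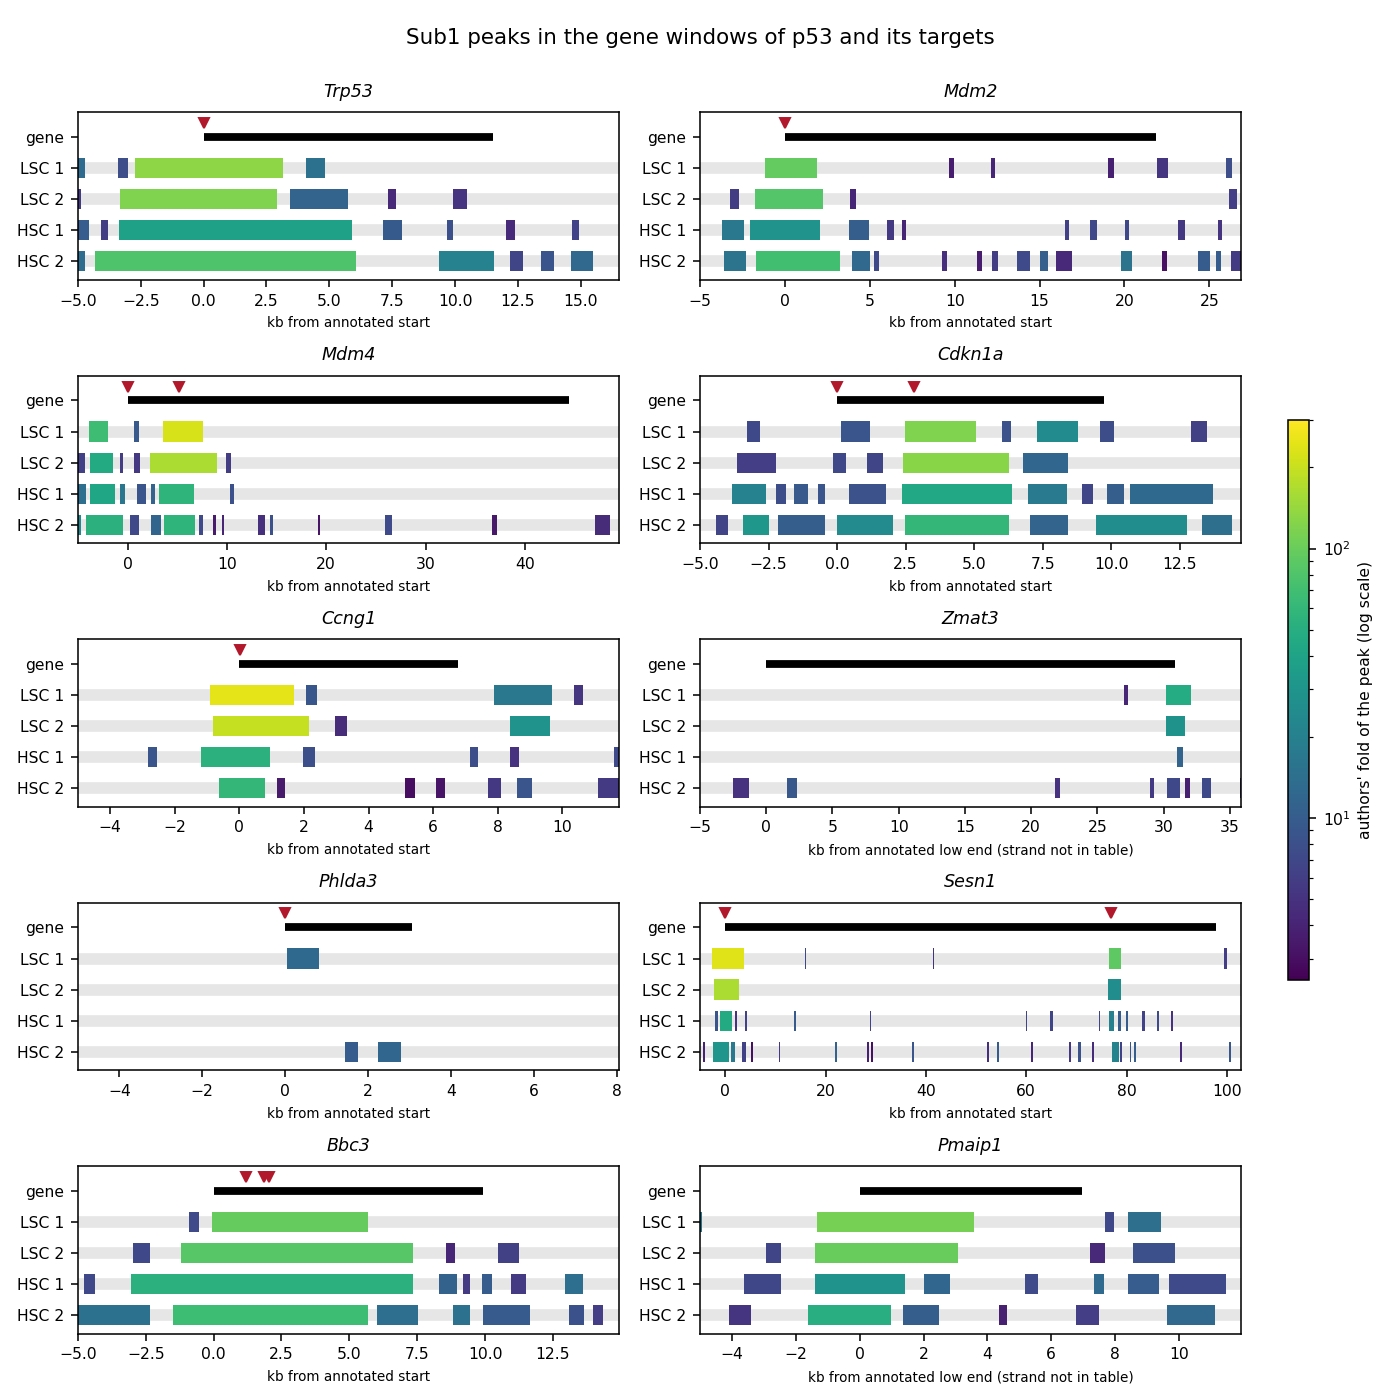
Sub1 peaks in the 10 gene windows, drawn as distance in kb from the 5′ end of the gene body (from the low end for Zmat3 and Pmaip1). The axes name that end the annotated start, though at some genes, such as Bbc3, the marked starts lie apart from it. Each row is 1 library, with LSC 1 and LSC 2 above HSC 1 and HSC 2, each block is a peak coloured by the authors' fold on a log scale, the black bar is the gene body and triangles mark annotated starts. The strongest block covers an annotated start at Trp53, Mdm2, Mdm4, Cdkn1a, Ccng1, Sesn1 and Bbc3, the downstream of 2 starts at Cdkn1a and Mdm4, and Phlda3 has no block in LSC 2 and HSC 1.

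The windows held 38 and 34 peaks in LSC 1 and LSC 2, against 70 and 95 in HSC 1 and HSC 2, and the groups did not overlap (difference in mean log2 count -1.18, exact permutation test, two-sided, p = 0.33, the smallest possible). Peaks covered 56 and 64.7 kb of the 343 kb of windows in the LSC libraries, against 76.6 and 101 kb in the HSC libraries, with means of 60.4 ± 6.13 kb and 88.6 ± 17 kb (SD, n = 2 each; p = 0.33, exact permutation test). The lists differ in length in the same direction: the windows took 0.0925% and 0.0995% of the LSC lists, against 0.0604% and 0.0403% of the HSC lists (p = 0.33, exact permutation test). In the equal-sized lists, which have the length of the shortest deposited list, the windows held 33 and 34 peaks in the LSC libraries, against 32 and 27 in the HSC libraries, and the difference turned to 0.19 on the log2 scale. Peaks then covered 54.5 and 64.7 kb in the LSC libraries, against 59.7 and 63.6 kb in the HSC libraries, and the groups overlapped (difference -2.06 kb, exact permutation test, p = 1.00). The member windows were more densely occupied than gene windows at large in each library, with 11.1 and 9.91 peaks per 100 kb in the LSC libraries against 3.5 and 3.07 for all genes, and 20.4 and 27.7 in the HSC libraries against 8.71 and 14 for all genes. These densities divide summed peaks by summed window length. The median member window was also shorter, at 20.7 kb against 27.2 kb for all genes, and the part of window length was not tested.

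Peaks of the 4 libraries merged into 111 regions in the member windows. Of these, 18 were found in all 4 libraries (16.2%, against 7.32% of 187500 regions in all gene windows), none in both LSC libraries alone (0.356% of all regions), and 9 in both HSC libraries alone (8.11%, against 8.99%). The share of HSC-alone regions was thus close to that over all genes. In the equal-sized lists there were 46 regions, of which 13 were in all 4 libraries (21.4% of all regions), 3 in LSCs alone (5.74%) and none in HSCs alone (2.75%). In lists of 17092 peaks there were 25 regions, of which 10 were in all 4 libraries (40.3% of all regions), 3 in LSCs alone (8.89%) and 3 in HSCs alone (2.52%). With the deposited lists and 1 library left out, the number in LSCs alone was 10 without LSC 2 and 1 without LSC 1 or without HSC 2, and the number in HSCs alone was 18 without LSC 2, 53 without HSC 1 and 32 without HSC 2. With fewer libraries such a call is easier to meet. The shares over all regions are not given for these settings, so these counts are no result about p53 genes.

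Trp53 lay under 1 broad peak around its start in each library. The authors' fold of that peak, the pileup of reads at its summit over the library's own background, was 132 and 119 in LSC 1 and LSC 2, against 38.8 and 78.5 in HSC 1 and HSC 2. Folds are set against a different background and list in each library, so they order peaks within a library and are not compared between libraries here. Within its own library, 38.7% and 25% of occupied genes had a stronger start-site peak than Trp53 in the LSC libraries, against 27.9% and 7.88% in the HSC libraries. In HSC 2 it was the strongest of the 10 members. The peak was 5.88 and 6.26 kb wide in the LSC libraries, against 9.25 and 10.4 kb in the HSC libraries. The groups did not overlap, which held in this direction for 10.3% of 10645 genes. Its summit lay at 1101 and 1100 bp from the Trp53 start in LSC 1 and LSC 2, against -1062 bp in HSC 1 and 1103 bp in HSC 2. The start of Wrap53, the divergent neighbour that encodes a telomerase and Cajal body protein, lies under the same peak. In HSC 1 the summit lay within the annotated body of Wrap53. The files cannot divide the signal between the 2 genes. After Wrap53, the genes whose equal-list start-site ranks over the 4 libraries were most like those of Trp53 were Sidt2 and Ctdnep1, with summed rank differences of 772 and 929.

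The antagonists of p53 differed from each other. Mdm2 had a start-site fold of 95.8 and 83.2 in LSC 1 and LSC 2, against 29 and 70.4 in HSC 1 and HSC 2, and 56.7% and 45.5% of occupied genes were stronger in the LSC libraries, against 46.8% and 11.4% in the HSC libraries. It stood near the middle of the occupied genes in 3 libraries and came next after Trp53 among the members in HSC 2. Its peak was 3.08 and 4.02 kb wide in LSCs, against 4.12 and 4.96 kb in HSCs. Of the 21 regions in its window, 3 were found in HSCs alone in the deposited lists, with folds between 4.25 and 15.5, against 8.99% of the regions of all genes, and none in the equal-sized lists.

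Mdm4 had a start-site fold of 223 and 163 in LSC 1 and LSC 2, against 56 and 56.5 in HSC 1 and HSC 2. It was among the 3 strongest members in LSC 1, LSC 2 and HSC 1, while in HSC 2 Trp53, Mdm2, Bbc3, Cdkn1a and Ccng1 were stronger. That peak sat at the downstream annotated start (chr1:133025416), with its summit 101 bp from the start in LSC 1, LSC 2 and HSC 1. At the upstream start (chr1:133030587) the strongest overlapping peak had a fold of 9.38 and 5.82 in the LSC libraries, against 16.5 and 52.9 in the HSC libraries, so the downstream start was 23.8 and 28 times as strong in LSCs, against 3.39 and 1.07 times in HSCs. The HSC 2 value belongs to a peak whose summit lay at -3051 bp from that start, upstream of it and beside 2 lysine tRNA genes. That region (chr1:133030837-133034770) was found in all 4 libraries, with folds of 67.6 and 45.4 in LSCs, against 42.2 and 52.9 in HSCs, and its strongest summit lay 263 and 262 bp from n-TKctt26 in LSCs, against 454 and 324 bp in HSCs. The promoter window at the upstream start itself was free of peaks but for 1 base in HSC 1. Neither Mdm4 promoter printed above held a match to the motifs searched.

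Cdkn1a, which encodes the cyclin-dependent kinase inhibitor p21, the main effector of p53-dependent cell cycle arrest, also has a pair of annotated starts. At the downstream start (chr17:29093769), whose promoter has 23 CpG dinucleotides and 2 GC boxes, the fold was 119 and 128 in LSC 1 and LSC 2, against 44 and 60 in HSC 1 and HSC 2. At the upstream start (chr17:29090979), whose promoter has 2 CpG dinucleotides and both p53 half-site matches named above, it was 8.66 and 7.09 in LSCs, against 8.6 and 24.2 in HSCs. The downstream start was thus 13.7 and 18.1 times as strong as the upstream one in LSCs, against 5.12 and 2.48 times in HSCs. These ratios did not overlap, but the same direction was common over all genes. Within each library, the region at the upstream start (chr17:29090825-29093032) was set against the strongest Cdkn1a region. Its relative fold was higher in both HSC libraries than in either LSC library. That held for 65.4% of 6088 regions found in all 4 libraries and not the strongest of their gene. The HSC 2 value at the upstream start comes from a peak with its summit 1658 bp downstream of it. The half-sites at the upstream start were covered by a peak in LSC 2 alone (fold 7.09). In the equal-sized lists the genes with start-site ranks most like those of Cdkn1a were Usp4, H1f5 and Alg12, with summed rank differences of 620, 867 and 872.

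A further region upstream of both Cdkn1a starts (chr17:29087159-29088731) stood out within the locus. Its fold was 7.21 and 6 in LSC 1 and LSC 2, against 20.6 and 31.5 in HSC 1 and HSC 2, which is 6.04% and 4.7% of the strongest Cdkn1a region in LSCs, against 46.9% and 52.6% in HSCs. The means were 5.37% ± 0.949 and 49.7% ± 3.98 (SD, n = 2 each; exact permutation test, two-sided, p = 0.33, the smallest possible). Over 6088 regions that were found in all 4 libraries and were not the strongest of their gene, the median ratio of the LSC to the HSC percentage was 0.438, and the ratio here was 0.108, with 108 regions (1.77%) smaller. The region was picked out after its values were seen.

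**Figure D2:**
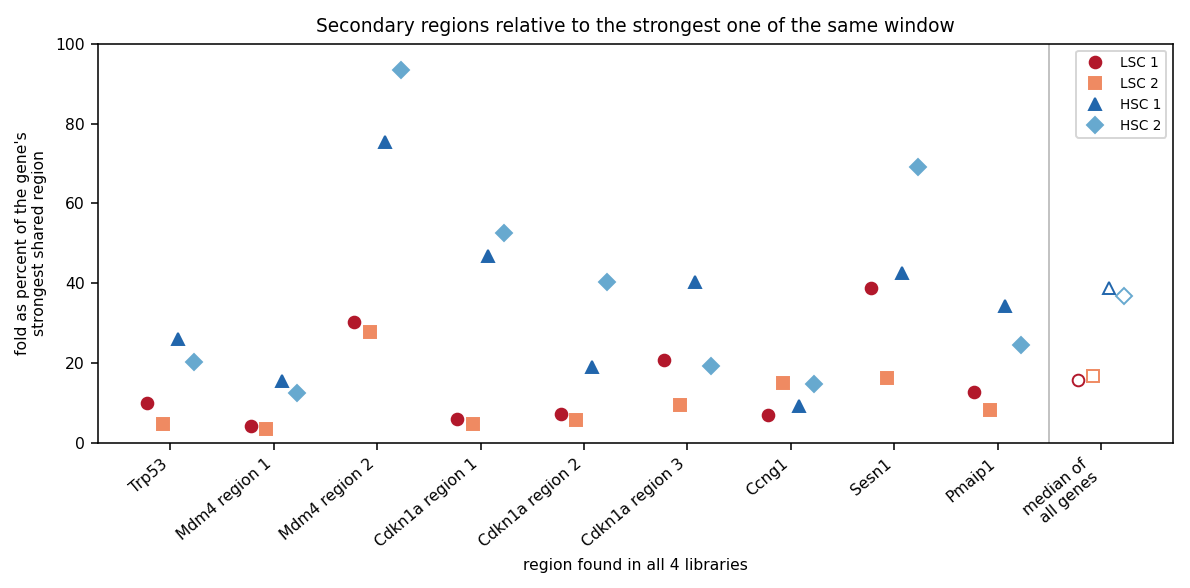
Fold of each secondary region found in all 4 libraries as a percentage of the fold of the strongest such region of the same gene window (y axis, linear), for LSC 1 and LSC 2 (circles, squares) left of HSC 1 and HSC 2 (triangles, diamonds). Open symbols at the right are medians over 6088 regions of all protein-coding genes, and Cdkn1a region 1 is the upstream region, at 6.04% and 4.7% in LSCs and 46.9% and 52.6% in HSCs.

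Among regions found in all 4 libraries, secondary ones were weaker relative to the main one in LSCs over the whole genome, and the members followed. A region had to be called in every library, which sets a lowest fold. That lowest fold is a larger percentage where the strongest fold is smaller, and its part in this pattern was not tested. Of 9 member regions, 7 had a higher relative fold in both HSC libraries than in either LSC library (65.4% of all 6088) and none the reverse (7.06%), while 1 region each of Cdkn1a and Ccng1 overlapped. The median over the member regions was 9.82% and 8.09% in LSC 1 and LSC 2, against 34.2% and 24.5% in HSC 1 and HSC 2. The median over all regions was 15.7% and 16.6% in the LSC libraries, against 38.8% and 36.8% in the HSC libraries. The count of 7 is near the genome-wide share and is no result about p53 genes. The count of none became 1 without LSC 1, where the share over all regions is not given.

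Ccng1, which encodes cyclin G1, a partner of Mdm2 in the feedback on p53, had the strongest start-site peak of the members in both LSC libraries. Its fold was 247 and 198 in LSC 1 and LSC 2, against 53.1 and 59.7 in HSC 1 and HSC 2, where the members ahead of it were Mdm4 and Bbc3 in HSC 1 and Trp53, Mdm2, Bbc3 and Cdkn1a in HSC 2. Its ranks in the equal-sized lists were 532 and 384 in LSCs, against 1136 and 2118 in HSCs, so it stood nearer the top in both LSC libraries, as did 33.3% of 12407 genes. Its promoter held 4 CCAAT boxes, more than any other member promoter, and the p53 half-site GGGCAAGCCT.

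Sesn1, which encodes a sestrin that restrains mTORC1 and takes part in antioxidant defence, had a start-site fold of 239 and 162 in LSC 1 and LSC 2, against 46.2 and 30.6 in HSC 1 and HSC 2. Ccng1 alone was stronger in LSC 1, and Ccng1 and Mdm4 in LSC 2. Its ranks in the equal-sized lists were 635 and 910 in LSCs, against 1818 and 6752 in HSCs. The peak lay at the upstream start (chr10:41810574), with its summit at -276 and -136 bp from it in LSCs, against -679 and -55 bp in HSCs. These summits all lay before the start. The Sesn1 window also overlaps Cep57l1 and Armc2, and the part of these neighbours in the signal was not tested. The downstream start (chr10:41887439), which has the p53 half-site AAGCTTGTTT in its promoter, had folds of 92.3 and 26.2 in LSCs, against 19.6 and 21.1 in HSCs. The upstream start was 2.59 and 6.18 times as strong as the downstream one in LSCs, against 2.36 and 1.45 times in HSCs, and here LSC 1 and HSC 1 were close to each other. In HSC 2 the peak near the downstream start did not reach into the promoter window.

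Zmat3, which encodes a zinc finger RNA-binding protein that acts in p53 tumour suppression, and Phlda3, whose product restrains Akt by competing for membrane lipids, were the weakest members. At Zmat3 the start-site fold was 47.8 and 28.5 in LSC 1 and LSC 2, against 11.5 and 7.08 in HSC 1 and HSC 2, and 76.9% and 81.5% of occupied genes were stronger in the LSC libraries, against 80.9% and 85.8% in the HSC libraries. Its place among occupied genes therefore overlapped between groups in the deposited lists. In the equal-sized lists it ranked 9181 and 9472 in LSCs, against 20381 in HSC 1, and was not in the HSC 2 list. In lists of 17092 peaks Zmat3 was the 1 member with window peaks in LSCs alone, which held for 3.69% of all genes.

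At Phlda3 the start was occupied in LSC 1, with a fold of 12.6 and a width of 0.765 kb, and 90.3% of occupied genes were stronger. LSC 2 and HSC 1 had no peak in its window, and HSC 2 had 2 peaks inside the gene, with folds of 9.92 and 12, away from the start. Its promoter has 26 CpG dinucleotides and 3 GC boxes. Over all promoters with 25 to 67 CpG dinucleotides, 78.4% had a start-site peak in all 4 libraries, against 9.68% of those with 0 to 4, so Phlda3 belonged to the minority of its class. The upstream start of Cdkn1a, with 2, and that of Mdm4, with 4, belonged to the lowest class. Both had a peak within 1 kb in all 4 libraries, so they too were in the minority of their class.

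Bbc3 and Pmaip1 encode Puma and Noxa, BH3-only proteins that trigger mitochondrial apoptosis downstream of p53. Bbc3 had a fold of 97.4 and 84.5 in LSC 1 and LSC 2, against 53.5 and 66.8 in HSC 1 and HSC 2. Its equal-list ranks were 6044 and 4369 in LSCs, against 1113 and 1567 in HSCs. It was the 1 member nearer the top in both HSC libraries, against 14.9% of 12407 genes. The peak covered all 3 annotated Bbc3 starts, with summits 1488 and 2702 bp downstream of the last of them in LSCs, against 2940 and 2793 bp in HSCs, inside the gene body. Pmaip1 had a fold of 110 and 98.9 in LSCs, against 29.5 and 50.6 in HSCs, and its equal-list ranks of 5317 and 3386 in LSCs, against 5185 and 3082 in HSCs, overlapped. Its peak was wider in LSCs, at 4.91 and 4.47 kb, against 2.8 and 2.59 kb in HSCs, and 38.2% of 10645 genes were likewise wider in both LSC libraries.

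**Figure D3:**
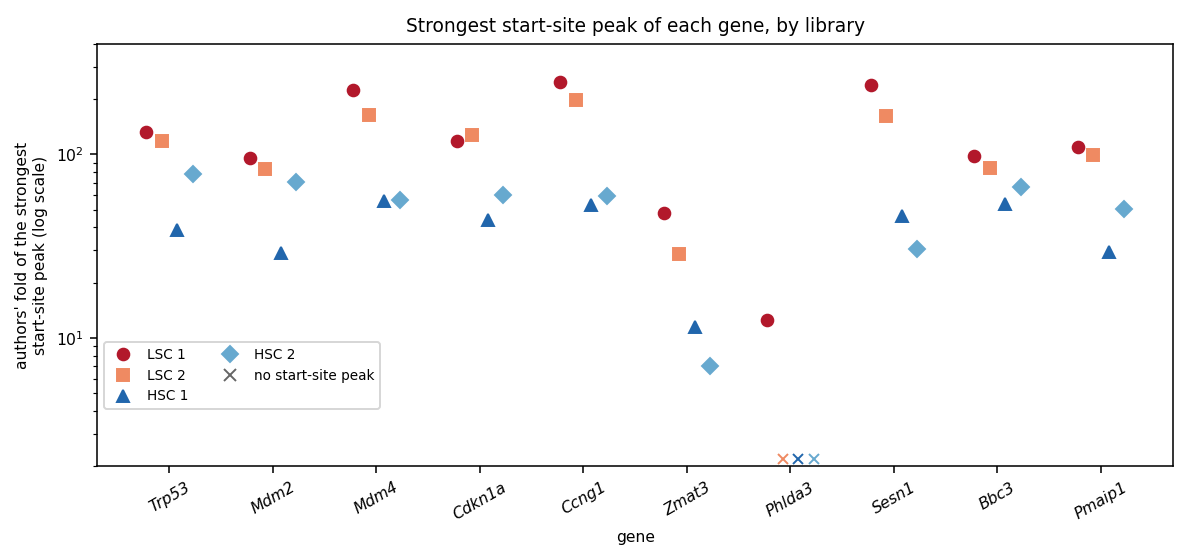
Authors' fold of the strongest start-site peak (log axis) of each member in LSC 1 and LSC 2 (circles, squares), left of HSC 1 and HSC 2 (triangles, diamonds), with crosses where a library has no such peak. Folds are relative to each library's own background, so the order within a library is what can be read: Ccng1 leads in LSC 1 at 247 and LSC 2 at 198, Mdm4 in HSC 1 at 56 and Trp53 in HSC 2 at 78.5.

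Taking the 10 members in the equal-sized lists, 4 (Mdm4, Ccng1, Zmat3 and Sesn1) ranked nearer the top in both LSC libraries than in either HSC library, against 33.3% of 12407 genes with a start-site peak in at least 1 such list. The reverse held for 1 member, Bbc3, against 14.9% of those genes. It held for 5 members without LSC 2 and 4 without HSC 1, settings for which no share over all genes is given. The other members, Trp53, Mdm2, Cdkn1a, Phlda3 and Pmaip1, overlapped. With all 4 libraries, both counts lie near the genome-wide shares. Among the 9 members with a start-site peak in all 4 libraries, the peak was wider in both LSC libraries at 5 (Mdm4, Ccng1, Zmat3, Sesn1 and Pmaip1), against 38.2% of 10645 genes, and in both HSC libraries at 2 (Trp53 and Mdm2), against 10.3%. The count of 2 was 4 without LSC 2 or without HSC 2, where the share over all genes is not given.

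**Figure D4:**
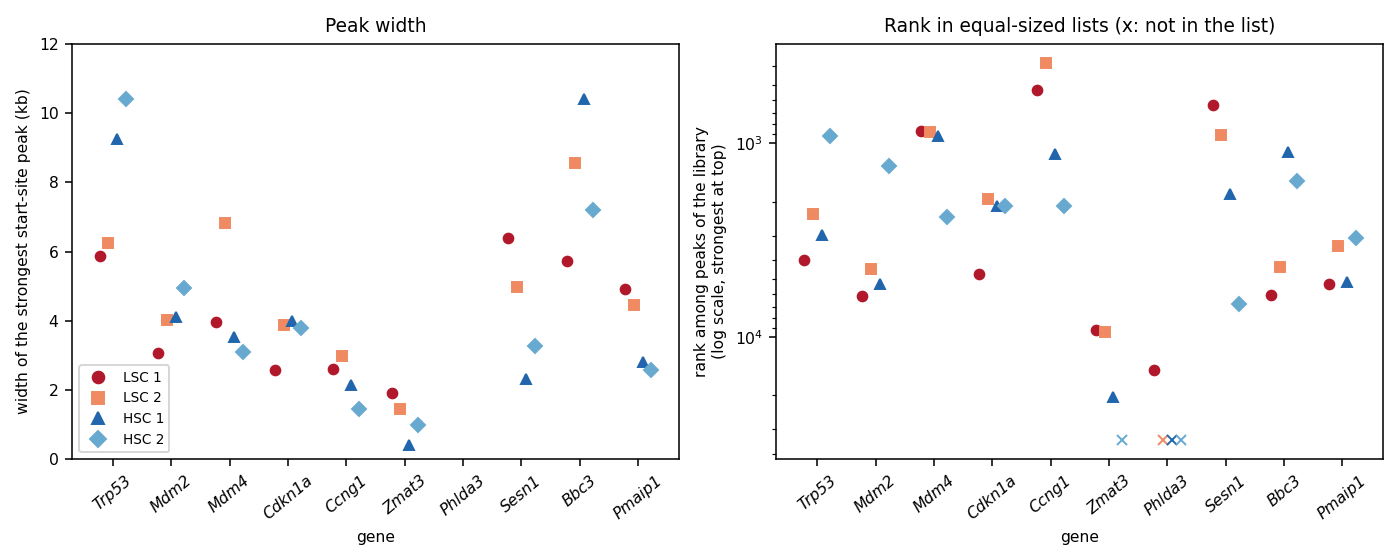
Width in kb of the strongest start-site peak (left) and its rank among the 34185 peaks of highest -log10 p of the library (right, log axis, strongest at the top) for each member, LSC 1 and LSC 2 left of HSC 1 and HSC 2. Crosses are peaks not in the list, Phlda3 has no width because 3 libraries had no start-site peak, and Bbc3 ranks lower in both LSC libraries, at 6044 and 4369, than in both HSC libraries, at 1113 and 1567.

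Lists of other genes of the pathway differed in how many members were occupied, and these differences were not tested. All 24 genes of a list of p53 regulators (kinases such as Atm and Chek2, acetyltransferases such as Ep300 and Kat5, and others) had a start-site peak in every library. Of all genes, 48.6% had one in all 4 libraries, and 51.9% to 64.1% in single libraries. The list includes Wrap53, whose start-site peak is that of Trp53. In the equal-sized HSC 2 list 22 regulators had a start-site peak, against 47.9% of all genes, Atr and Trp53bp1 being absent. The list was led by Daxx, Ep300 and Kmt5a, whose weakest ranks in their lists were 333, 1347 and 1485. Of 30 other p53 targets, 27 and 27 had one in LSC 1 and LSC 2, against 27 and 27 in HSC 1 and HSC 2, and 26 had one in all 4. The leaders were Triap1, Rrm2b and Rps27l, with folds at Triap1 of 237 and 212 in LSCs, against 66.3 and 117 in HSCs. Eda2r and Tgfa had no start-site peak in any library, Perp had one in HSC 2 alone, and Tnfrsf10b, a death receptor gene, had one in LSC 1, LSC 2 and HSC 1. Of 11 genes that link p53 to ferroptosis, 8 and 8 had one in LSCs, against 8 and 10 in HSCs (exact permutation test, two-sided, p = 1.00). Slc7a11, the cystine transporter gene that p53 represses, was occupied at its start in LSC 2, HSC 1 and HSC 2 with folds of 10.9, 9.82 and 13.8, and had no peak in its window in LSC 1. Gpx4, Gls2 and Fdxr led this list. The p53 relatives Trp63 and Trp73 had start-site peaks at 1 and 0 genes in LSCs, against 1 and 2 in HSCs. In the deposited lists no gene of these 4 lists had a start-site peak in both libraries of 1 group and in none of the other, which held for 0.503% of all genes in LSCs alone and 2.76% in HSCs alone. In lists of 17092 peaks Ei24, Gdf15, Tnfrsf10b, Atr and Trp53bp1 were in LSCs alone (3.62% of all genes), and at a fold of at least 20 Ei24, Plk2, Tigar, Dcxr, Atr and Trp53bp1 were (4.13%).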

How the data were processed

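Sub1 CUT&Tag gave 1 deposited peak list for each of 4 libraries. Per the submitters' processing notes, FastQC 0.11.5, Bowtie2 2.2.9, MACS2 and ChIPseeker were used with mm10; calling settings, duplicate handling and a control are not given in the sources used here, and per the labels cell numbers are stated for HSCs alone. Peak names begin with H4-Cut in all lists, a prefix left without explanation by the labels. The deposited score is 10 times -log10 q, rounded down, and the authors' -log10 q was at least 5.21 in each list. The authors' fold is the ratio of pileup to background (1 added to each); with the deposited -log10 p, folds under 60 solved to whole pileups (100% within 0.05) at 1 constant background per library.

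Genes, starts and promoters came from RefSeq (GRCm38.p6). Starts and strand came from the promoter table, which covers 79.9% of protein-coding genes and 8 of 10 members; for other genes either annotated end counted. Overlap was at least 1 bp. Equal-sized lists took the 34185 (or 17092) peaks of highest -log10 p. Groups were compared with the exact permutation test over libraries, two-sided, threshold 0.05. Named genes were the members, the 3 leaders of each list by their weakest of 4 start-site ranks, genes present in 1 group alone, and the 3 genes nearest Trp53 and Cdkn1a in rank. List genes absent from some libraries were also named after their values were seen. The members, lists and tests were chosen with earlier results of these data known, and within-library ratios, widths, ranks in equal-sized lists, secondary regions and promoter letters were added after the data were seen. Alternatives were equal-sized and half-sized lists, ranking by fold, stricter -log10 q (10) and fold (20), summits, other windows, leaving out each library, and pairing by number. Steps were tested on simulated data. Exons, introns and peak sequences were not analysed here. Python 3.11.15, NumPy 2.4.6, pandas 2.3.3 and matplotlib 3.10.9 were used.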

Additional observations from a re-analysis of the deposited data

How the results depend on the processing

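All differences are LSC minus HSC. Of 174 recomputed values, 6 reversed. No test passed 0.05 under any setting, so for differences with a test a kept direction says nothing of size. In equal-sized lists, ranked by -log10 p or by fold, the difference in peaks in the windows turned to 0.19 (log2), covered length differed by -2.06 kb, members with a start-site peak by 1, other p53 targets with a start-site peak differed by 1.5 genes, regulators by 1 gene, and the windows held 3 regions in LSCs alone and 0 in HSCs alone. In lists of 17092 peaks, peaks in the windows differed by -0.05 (log2), covered length by -0.343 kb, members with a start-site peak and with a window peak by 1.5 each, the share of the list by -0.00293 percentage points, other targets by 4, regulators by 2 and ferroptosis genes by 0.5, with 1 member and 3 regions in LSCs alone, 3 regions in HSCs alone and 10 in all 4. At a fold of at least 20, peaks differed by -0.03 (log2), covered length by -0.335 kb, members with a start-site peak and with a window peak by 1 each, the share by -0.0168, other targets by 5, regulators by 4 and ferroptosis genes by 1, with 1 member and 1 region in LSCs alone, 1 region in HSCs alone and 9 in all 4. Counting summits moved other targets and regulators to -0.5 each, and the unextended gene body (3 kb around starts) moved covered length to -10.7 kb, members with a start-site peak to 0, other targets to -1 and regions in HSCs alone to 3. Shorter lists hold fewer peaks by construction; beyond that the cause was not tested. Leaving out 1 library gave 0 to 10 regions in LSCs alone, 11 to 53 in HSCs alone, 1 to 5 members ranked nearer the top in both HSC libraries, 2 to 4 with a wider peak there, and 0 to 1 secondary regions higher in both LSC libraries. With fewer libraries these calls are easier to meet, and the shares over all genes or regions are not given for them. Covered length was not recomputed with summits.

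Same-numbered libraries correlated at 0.29 over 10645 genes in their start-site fold, centred on each library's median, but the labels do not say that the numbers mark a pair. With the replicate block (exact sign-flip test, smallest p 0.50) the difference in peaks was -1.18 with p = 0.50; neither fit could pass 0.05, so the block says nothing about stability.

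With 2 libraries per group the smallest p was 0.33, read depth is unknown, and no input or IgG control was analysed, so weak peaks such as those at Phlda3 rest on the caller's background alone.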
